A study of Homo sapiens with 12 samples.

Results

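The 33 genes described here carry glucose from the cell surface to pyruvate, lactate, acetyl-CoA and pentose phosphates. As a list of known functions, chosen with earlier results of these data known, they were taken by symbol from a deposited count table. All 33 were among its 55782 gene symbols, and all 33 passed the filter on low counts that left 15535 genes tested. The list holds the glucose transporters SLC2A1 and SLC2A3, the glycolytic enzymes from hexokinase to pyruvate kinase, and PFKFB3 and PFKFB4, which set the level of a phosphofructokinase activator. It also holds LDHA and LDHB with the lactate transporters SLC16A1 and SLC16A3, the pyruvate dehydrogenase genes PDHA1, PDHB and DLAT with their kinase PDK1, the pentose phosphate enzymes PGD, TKT and TALDO1, and HIF1A with its targets BNIP3 and P4HA1.

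Glycolysis splits glucose into pyruvate, which is either reduced to lactate and exported or passed into mitochondria as acetyl-CoA, while the pentose phosphate branch yields NADPH and ribose. T cells raise glucose uptake and glycolysis when their antigen receptor and CD28 are engaged, and signalling from PD1 is known to restrain that shift. HIF1A, the oxygen-regulated transcription factor, and MYC are its best known transcriptional drivers.

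RNA was sequenced from 12 libraries of a 24 h co-culture of 2 engineered human lines: JurkatLAG3+PD1+, a T cell leukaemia line carrying the inhibitory receptors LAG3 and PD1, and Raji-PDL1, a B cell lymphoma line carrying the PD1 ligand. In every library the Raji-PDL1 cells had been loaded with SED at 100 ng/ml, so the isotype libraries are stimulated co-cultures and not resting cells. The 4 arms received an isotype control antibody as both components, anti-LAG3 (MK4280) with isotype, anti-PD1 (MK3475) with isotype, or anti-PD1 with anti-LAG3, here called the combination. Each arm was dosed at 1, 0.1 and 0.01 µg/ml of each component, with 1 library per arm and dose, and the study asks what the single and combined antibodies do to the transcriptome. Both lines were kept under puromycin and the Jurkat line also under Geneticin, and cells of several wells were pooled for each condition. The 3 libraries of an arm are its 3 doses, so an SD over an arm holds both dose and handling. The arm fits took out a dose effect common to the arms, and the slope fits a line on log10 dose in each arm. Their errors hold the spread that was left, estimated in part from all genes tested. A p-value here speaks only of that library-to-library spread, part of which may be technical. The labels call the RNA polyA while the protocol speaks of total RNA.

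Depth ran from 23593973 to 36581754 counts per library, and the fewest counts of any of the 33 genes in a library were 94, for SLC16A3. Defining markers of both lines were present throughout, with CD3E at 152 to 205 and BCL11B at 25.0 to 59.9 CPM (counts scaled to library size with TMM factors) for T cells, and PAX5 at 322 to 414 CPM for B cells. Because the 2 lines were read together, more cells of a line and more RNA per cell cannot be told apart. The mean log2 CPM of 20 T markers minus that of 20 B markers was highest for the anti-LAG3 arm at -1.84 ± 0.04, then -1.97 ± 0.06 for the combination, -2.02 ± 0.10 for anti-PD1 and -2.07 ± 0.04 for isotype (SD, n = 3), and the anti-LAG3 and isotype libraries did not overlap. Among isotype libraries, the one at 1 µg/ml stood apart, differing from the other 2 by a chi-square per degree of freedom of 8.93 and 10.8 over genes, against 1.76 between those 2. Pairs of libraries within the other arms gave 3.65 to 11.0, so 1.76 was the lowest of any arm.

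The 33 genes were expressed at very unequal levels. Per kilobase of gene length, the median over the 12 libraries was 1515 CPM per kb for GAPDH, the oxidising step of the second phase, 854 for ENO1, the main enolase, 488 for LDHB and 468 for TPI1, the triose isomerase. PKM followed at 275 and LDHA at 236 CPM per kb, with ALDOA, PGAM1, PGD and PGK1 between 193 and 121. At the low end stood ENO2 at 5.14, PDK1 at 3.43, PFKFB4 at 2.32, SLC2A3 at 2.31, BNIP3 at 1.56 and SLC16A3 at 0.489 CPM per kb. PFKFB4 and SLC2A3, neighbours in this order, had overlapping ranges of 1.82 to 2.56 and 1.97 to 3.29 CPM per kb. Together the 33 genes took 1.98% to 2.16% of all counts, lowest in isotype at 0.1 µg/ml and highest in anti-PD1 at 0.01 µg/ml.

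**Figure D1:**
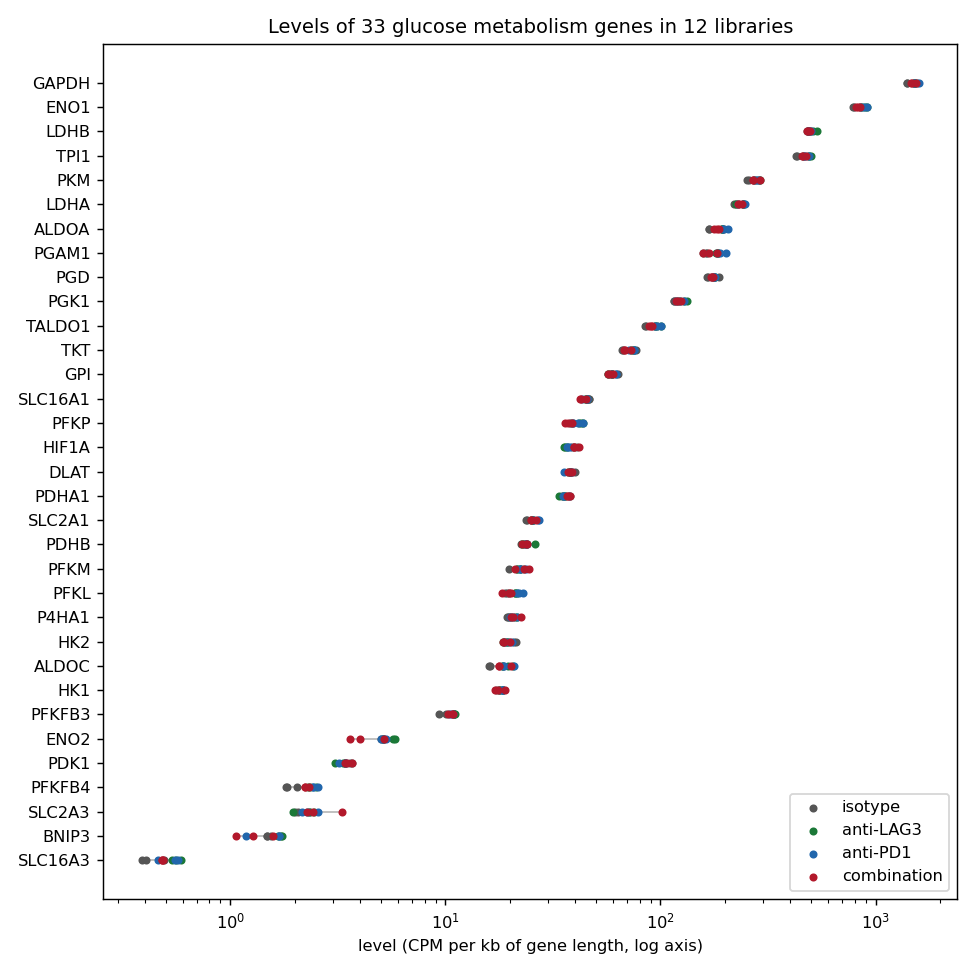
Length-scaled level (CPM per kb of gene length, log axis) of the 33 glucose metabolism genes, 1 point per library, coloured by arm and ordered by median. GAPDH at 1515 and SLC16A3 at 0.489 CPM per kb mark the ends, and ENO2, SLC2A3 and BNIP3 show the widest scatter between libraries.

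Most of these genes moved little between libraries. The highest library exceeded the lowest by 1.10 to 1.67 times with a median of 1.16, and 27 of 33 genes stayed under 1.3 times. The median was 1.23 for the 10121 tested genes with a mean of at least 5 CPM. That set was not matched to the 33 in level, and SLC16A3, at a median of 4.40 CPM, lies below its cut. Of the 33, those over 1.5 times were SLC2A3, a high-affinity glucose transporter, at 1.67, ENO2, the neuronal enolase isozyme, at 1.63, BNIP3, a mitophagy receptor, at 1.62, and SLC16A3, the lactate exporter MCT4, at 1.51.

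The small shifts had a common pattern across libraries. In anti-LAG3, 26, 24 and 18 of the 33 genes lay above their own 12-library mean at 1, 0.1 and 0.01 µg/ml, and in anti-PD1 27, 19 and 27 did. In isotype the counts were 17, 8 and 7, and in the combination 19, 11 and 8. The isotype libraries at 0.1 and 0.01 µg/ml held the lowest value of 8 and 7 genes, where 8.20% and 9.57% of all tested genes had their lowest value. The isotype library at 1 µg/ml held the highest value of 6 of the 33, among them GPI, PGD, TKT and PDK1, and the lowest of 4, PGAM1, PFKM, PFKFB3 and PDHB, where 9.39% and 8.24% of all tested genes had their highest and lowest value.

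**Figure D2:**
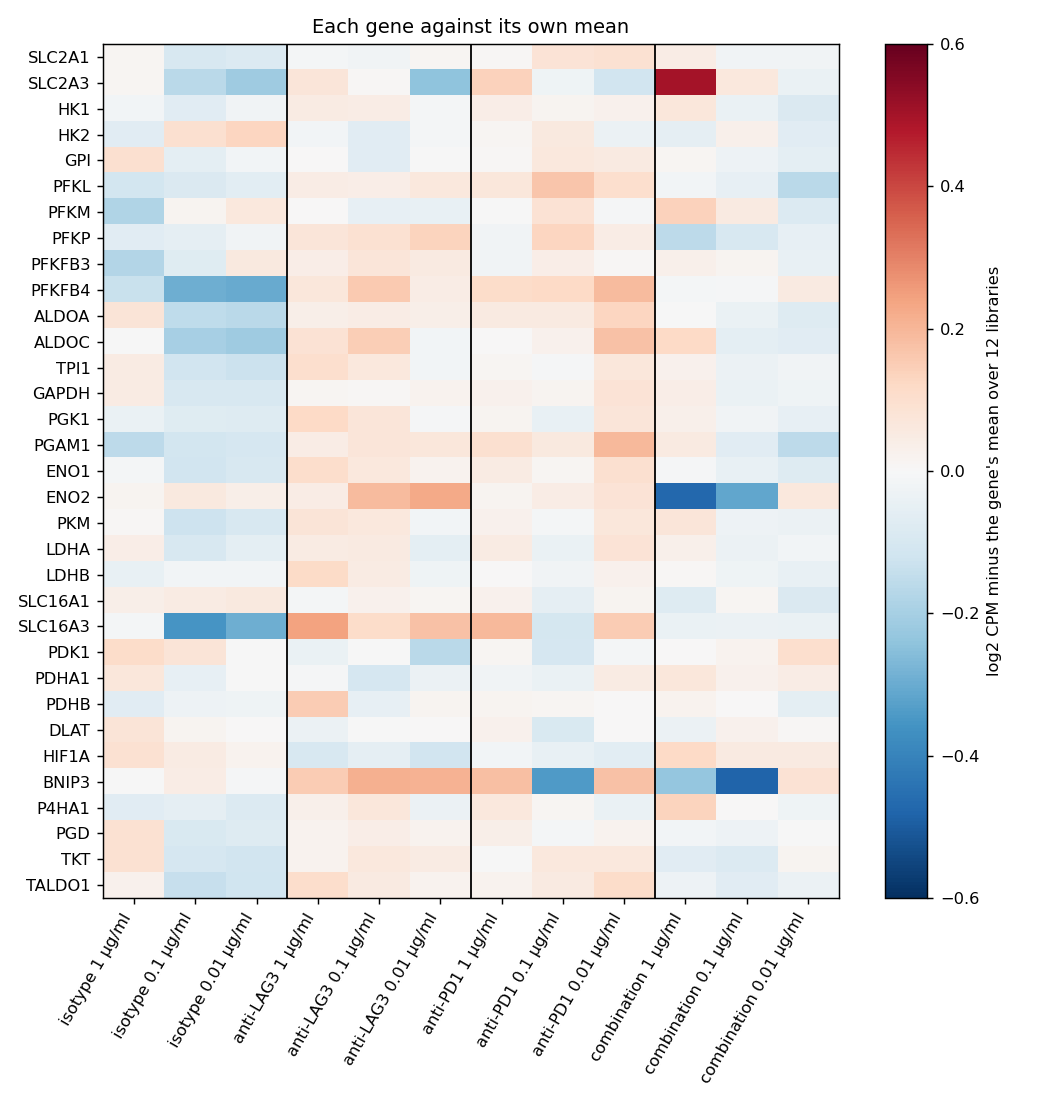
Colour gives log2 CPM minus the gene's own mean over 12 libraries, with genes in pathway order and libraries grouped by arm and dose. The isotype libraries at 0.1 and 0.01 µg/ml are mostly blue (25 and 26 of 33 genes below their mean) and the anti-PD1 library at 0.01 µg/ml mostly red (27 of 33 above).

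With anti-LAG3 alone, 4 of the 33 genes rose over isotype and 1 fell, all by less than 1.3-fold. Those that rose were PFKFB4, PFKP, ALDOC and PGAM1, which act at the phosphofructokinase, aldolase and phosphoglycerate mutase steps, and the one that fell was HIF1A. These 5 are to be read against 10.0% of all 15535 genes called in this comparison (edgeR quasi-likelihood test, arm plus dose, Benjamini-Hochberg adjusted p under 0.05 over all genes). Of the 33 genes 26 had a positive difference, with a median log2 difference of 0.083 against -0.0015 over all genes.

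PFKFB4, a bifunctional enzyme whose kinase activity makes the phosphofructokinase activator fructose 2,6-bisphosphate, read 14.4, 15.2 and 14.1 CPM in anti-LAG3 at 1, 0.1 and 0.01 µg/ml and 12.5, 11.2 and 11.1 CPM in isotype. All 3 anti-LAG3 libraries were above all 3 isotype libraries, and the log2 difference was 0.33 ± 0.08 (SE, adjusted p = 0.0133). PGAM1, the phosphoglycerate mutase, read 466, 475 and 473 CPM against 406, 418 and 421 in isotype, again without overlap, a log2 difference of 0.18 ± 0.05 (SE, adjusted p = 0.0202).

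PFKP, the platelet-type phosphofructokinase and the most abundant of the 3 subunits here, read 203, 206 and 212 CPM in anti-LAG3 and 184, 186 and 191 in isotype. Its libraries did not overlap and the log2 difference was 0.15 ± 0.04 (SE, adjusted p = 0.0292). ALDOC, the brain-type aldolase, read 57.5, 60.1 and 53.5 CPM against 54.2, 47.2 and 46.8 in isotype, a log2 difference of 0.21 ± 0.07 (SE, adjusted p = 0.0465). For ALDOC the groups overlapped, because the isotype library at 1 µg/ml was above the anti-LAG3 library at 0.01 µg/ml.

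HIF1A went the other way. It read 185, 190.0 and 182 CPM in anti-LAG3, below all isotype libraries at 211, 205 and 200.2 CPM, and its log2 difference was -0.14 ± 0.04 (SE, adjusted p = 0.0249). Its 2 listed targets gave 0.09 ± 0.05 (SE, adjusted p = 0.256) for P4HA1, a collagen prolyl hydroxylase, and 0.18 ± 0.12 (SE, adjusted p = 0.379) for BNIP3.

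The count was sensitive to single libraries: leaving out the anti-LAG3 or the isotype library dosed at 0.1 µg/ml gave 0, leaving out anti-LAG3 at 1 or isotype at 0.01 gave 1 and leaving out anti-LAG3 at 0.01 gave 2, but it was 8 when anti-PD1 at 1, anti-PD1 at 0.01 or the combination at 1 was dropped, 10 when the combination at 0.01 was and 11 when isotype at 1 was. With the T minus B marker balance as a covariate it was 0, at log2 differences of 0.41 for PFKFB4, 0.39 for ALDOC, 0.28 for PGAM1, 0.11 for PFKP and -0.16 for HIF1A. Only that of PFKP was smaller than without the covariate. The balance did not overlap between the anti-LAG3 and isotype libraries, so this fit cannot separate it from the arm. In this comparison 4 of 20 T markers rose, and of 20 B markers 1 rose and 4 fell. With a gene length and GC trend removed the count was 2, and of the 5 genes only PFKFB4 kept the call. All 5 log2 differences were smaller in that fit, at 0.31 for PFKFB4, 0.14 for ALDOC, 0.13 for PGAM1, 0.09 for PFKP and -0.08 for HIF1A.

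With anti-PD1 alone, 3 of the 33 genes rose over isotype and none fell, where 3.82% of all genes were called. The 3 were PFKFB4, PGAM1 and PFKL, the liver-type phosphofructokinase. PFKFB4 read 14.8, 14.8 and 15.6 CPM in anti-PD1, above every isotype library, a log2 difference of 0.38 ± 0.08 (SE, adjusted p = 0.0161). PGAM1 read 483, 469.9 and 518 CPM, with its highest value in any library at 0.01 µg/ml, and a log2 difference of 0.24 ± 0.05 (SE, adjusted p = 0.0122). The same 3 isotype libraries serve as controls for both single antibodies, so the rise of PFKFB4 and PGAM1 in both arms is not 2 independent observations.

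PFKL read 192, 206 and 196 CPM in anti-PD1 and 169, 173 and 176 in isotype, without overlap, a log2 difference of 0.20 ± 0.04 (SE, adjusted p = 0.0192). In anti-LAG3 it read 189, 188 and 192 CPM, also above all isotype libraries, with a log2 difference of 0.14 ± 0.04 (SE, adjusted p = 0.0549) that missed the threshold. Of the 33 genes, 27 had a positive difference, and the median was 0.079 against -0.0053 over all genes. Dropping the anti-PD1 library at 0.01 µg/ml or the isotype library at 0.1 turned the count of 3 into 0, dropping anti-PD1 at 0.1 left 1, dropping anti-PD1 at 1 gave 6 and dropping isotype at 1 gave 9. It was 0 with the length and GC trend removed, at log2 differences of 0.35 for PFKFB4, 0.20 for PGAM1 and 0.14 for PFKL. The marker balance as a covariate kept PFKFB4, PGAM1 and PFKL called, at adjusted p of 0.0226, 0.0144 and 0.0307.

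The 250 bases before the start site follow for 4 of the 5 genes that rose in a single-antibody arm, those with 1 start in the RefSeq table (GRCh38.p14), and are shown because each of these genes passed in at least 1 of the 2 arms: PFKFB4 and PGAM1 in both, ALDOC in anti-LAG3 and PFKL in anti-PD1. Capitals mark ACGTG or GCGTG, the core of the hypoxia response element, on either strand. The letters CACGTG form the E-box bound by MYC dimers, and they contain the first of these cores on both strands.
PFKFB4 (chr3:48556804-48557053, minus strand): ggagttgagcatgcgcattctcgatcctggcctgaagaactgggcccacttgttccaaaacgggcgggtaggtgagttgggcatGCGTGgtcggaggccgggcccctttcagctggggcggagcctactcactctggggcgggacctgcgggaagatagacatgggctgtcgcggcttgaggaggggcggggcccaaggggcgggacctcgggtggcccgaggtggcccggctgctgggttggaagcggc
PGAM1 (chr10:97427568-97427817, plus strand): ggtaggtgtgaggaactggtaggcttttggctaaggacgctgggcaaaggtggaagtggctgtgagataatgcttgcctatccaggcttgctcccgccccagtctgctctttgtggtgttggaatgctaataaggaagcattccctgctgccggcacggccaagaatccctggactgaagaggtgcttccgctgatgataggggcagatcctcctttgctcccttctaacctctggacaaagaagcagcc
PFKL (chr21:44299803-44300052, plus strand): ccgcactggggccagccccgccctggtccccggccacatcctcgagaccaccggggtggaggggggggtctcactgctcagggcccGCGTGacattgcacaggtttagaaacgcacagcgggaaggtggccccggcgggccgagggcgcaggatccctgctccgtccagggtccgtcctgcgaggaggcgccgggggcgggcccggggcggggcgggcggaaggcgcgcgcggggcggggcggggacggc
ALDOC (chr17:28576896-28577145, minus strand): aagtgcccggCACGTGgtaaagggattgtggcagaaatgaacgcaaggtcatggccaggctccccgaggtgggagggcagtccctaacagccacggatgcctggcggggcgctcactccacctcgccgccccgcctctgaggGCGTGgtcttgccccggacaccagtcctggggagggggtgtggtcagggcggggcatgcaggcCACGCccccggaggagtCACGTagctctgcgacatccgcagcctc

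ALDOC had 5 core matches, of which a CACGTG gave 2, PFKFB4 and PFKL had 1 each, and PGAM1 had none in this window. The windows of PFKFB4 and PGAM1 lie inside the bounds RefSeq gives for these genes, chr3:48517684-48563136 and chr10:97426191-97433444, because the table's start is not their outermost one. The table held 58 windows for 31 of the 33 genes, without SLC2A3 and SLC16A1. Of those 58, 37.9% held ACGTG, 34.5% held GCGTG and 13.8% held CACGTG, where 18.5%, 32.2% and 6.34% of all 35116 windows did. These letters describe the windows and show neither binding nor control.

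None of the 33 genes passed edgeR's test between the combination and isotype, in a comparison where 0.00644% of all genes were called. At an unadjusted p under 0.05 there were 5 of the 33 and 1037 of all genes, and DESeq2 also called none of the 33. The smallest adjusted p belonged to SLC2A3, which read 20.3, 15.0 and 13.9 CPM in the combination and 14.4, 12.8 and 12.4 in isotype, a log2 difference of 0.30 ± 0.08 (SE, adjusted p = 0.234). Only the combination library at 1 µg/ml stood clear of all isotype libraries by a wide margin, and the library at 0.01 µg/ml lay within their range.

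In RefSeq's annotation of GRCh38.p14, SLC2A3 lies at chr12:7919230-7936187, ENO2 at chr12:6914580-6923697, PFKM at chr12:48105353-48146404, PFKP at chr10:3067548-3136805 and HIF1A at chr14:61695513-61748258. ENO2 and PFKFB4 had the next largest differences in either direction, ENO2 with 15.4, 17.2 and 22.3 CPM against 21.6, 22.2 and 21.9 and PFKFB4 with 13.6, 13.6 and 14.2 CPM against 12.5, 11.2 and 11.1. Their log2 differences were -0.27 ± 0.08 (SE, adjusted p = 0.351) and 0.25 ± 0.08 (SE, adjusted p = 0.439). All 3 combination libraries were above isotype for PFKFB4, while for ENO2 the 2 higher doses were below and the lowest dose was not. With the combination library at 0.01 µg/ml left out, 2 of the 33 passed, SLC2A3 up and ENO2 down.

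Genes well known as targets of glycolytic induction did not pass in the combination. SLC2A1, the main glucose transporter GLUT1, read 129, 123 and 124 CPM against 126, 117 and 118, and the 95% interval of its log2 difference was -0.04 to 0.15. HK2, the inducible hexokinase, read 114, 121 and 113 CPM against 113, 127 and 129, with an interval of -0.19 to 0.02. These levels overlapped between the arms.

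LDHA, which turns pyruvate into lactate, read 1489.8, 1424 and 1443 CPM against 1497, 1362 and 1399, with an interval of -0.06 to 0.13. PFKFB3, the more abundant of the PFKFB pair, read 59.4, 58.8 and 56.3 CPM against 51.4, 55.2 and 60.4, with an interval of -0.05 to 0.18. PDK1, which inhibits pyruvate dehydrogenase, read 51.0, 51.7 and 54.6 CPM against 55.0, 53.7 and 50.8, with an interval of -0.14 to 0.10. None of these 5 genes passed against isotype in a single-antibody arm either, where their CPM ranges in anti-LAG3 and anti-PD1 were 123 to 126 and 126 to 134 for SLC2A1, 113 to 117 and 115 to 123 for HK2, 1400.5 to 1511 and 1419.8 to 1542 for LDHA, 59.8 to 61.0 and 57.3 to 59.6 for PFKFB3, and 45.6 to 50.9 and 47.5 to 51.5 for PDK1.

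Set directly against the single antibodies, the combination was mostly lower. Against anti-LAG3, PFKP and ENO2 fell and HIF1A rose, 3 of the 33 where 5.75% of all genes were called, and 25 of 33 differences were negative. PFKP read 173, 181 and 187 CPM in the combination, below all anti-LAG3 libraries, a log2 difference of -0.20 ± 0.04 (SE, adjusted p = 0.00872). ENO2 differed by -0.38 ± 0.08 (SE, adjusted p = 0.00971), with anti-LAG3 at 22.0, 24.4 and 25.0 CPM, and the groups overlapped only through the combination library at 0.01 µg/ml and the anti-LAG3 library at 1 µg/ml. HIF1A read 215, 205 and 205 CPM in the combination, above all anti-LAG3 libraries, a log2 difference of 0.17 ± 0.04 (SE, adjusted p = 0.0188). In this comparison 3 of 20 T markers fell and 6 of 20 B markers rose. None of the 3 genes passed with the marker balance as a covariate, where their log2 differences were -0.18 for PFKP, -0.31 for ENO2 and 0.17 for HIF1A, or when the anti-LAG3 library at 1 µg/ml or the combination library at 0.1 was dropped, and 1 passed when anti-LAG3 at 0.1 was.

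Against anti-PD1, none of the 33 passed in edgeR's test, where 0.354% of all genes were called, although 26 of 33 differences were negative. At an unadjusted p under 0.05 there were 9 of the 33, where 14.0% of all genes were, and DESeq2 called 1, PFKL. PFKL had the smallest adjusted p, with 181, 177 and 164 CPM in the combination, below all anti-PD1 libraries, and a log2 difference of -0.19 ± 0.04 (SE, adjusted p = 0.0629). Dropping 1 library at a time, the count was 3 for isotype at 1 µg/ml, 2 for the combination at 1 and 1 for either of these arms at 0.01, and it was 3 with no filter on low counts.

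For some of the 33 genes, the combination differed from the sum of the single-antibody differences. For each gene, the difference of the combination from isotype minus the 2 single-antibody differences was tested, which is the same as the effect of adding anti-LAG3 in the presence of anti-PD1 minus its effect without it. In 10 of the 33 genes this value passed, 9 negative and 1 positive, where 15.3% of all genes were called. Among the markers, 3 of 20 T genes were negative, and of 20 B genes 6 were positive and 1 negative. The median over the 33 was -0.11 against 0.010 over all genes, and 26 were negative.

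Of the phosphofructokinase subunits, PFKL gave -0.32 ± 0.06 (SE, adjusted p = 0.00147), the smallest adjusted p of the 33, and PFKP gave -0.30 ± 0.06 (SE, adjusted p = 0.00166). The third subunit, PFKM, gave 0.01 ± 0.09 (SE, adjusted p = 0.954). PGAM1 gave -0.36 ± 0.07 (SE, adjusted p = 0.00147), PFKFB4 -0.45 ± 0.12 (SE, adjusted p = 0.00988), and TALDO1, the transaldolase of the pentose phosphate branch, -0.24 ± 0.06 (SE, adjusted p = 0.0113). Both enolases were negative, ENO1 at -0.23 ± 0.06 (SE, adjusted p = 0.0143) and ENO2 at -0.39 ± 0.12 (SE, adjusted p = 0.0235), and the last of the 9, the aldolases ALDOA and ALDOC, lay at -0.23 and -0.28.

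HIF1A was the only one of the 33 that passed with a positive value, at 0.26 ± 0.06 (SE, adjusted p = 0.00323), since each single antibody lay below isotype while the combination overlapped it.

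The levels behind 3 of these genes have not been given yet. ENO1 read 3631, 3533 and 3427 CPM with anti-LAG3, 3494, 3405 and 3605 with anti-PD1, 3356, 3276 and 3203 with both antibodies and 3352, 3123 and 3158 with isotype. TALDO1 read 301, 290.3 and 284 CPM with anti-LAG3, 284, 290.2 and 302 with anti-PD1, 274, 267 and 273 with both and 285, 254 and 257 with isotype. ALDOA, the main aldolase, read 1185, 1193 and 1185 CPM with anti-LAG3, 1198, 1200.2 and 1263 with anti-PD1, 1155, 1123 and 1097 with both and 1219, 1039.8 and 1032 with isotype. For all 3, the isotype library at 1 µg/ml was well above the other isotype libraries and inside or next to the range of the single antibodies.

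For 5 of the 10, PFKL, PFKP, PGAM1, PFKFB4 and HIF1A, the value passed whichever single library was left out, and the count was between 6, with the isotype library at 0.1 µg/ml dropped, and 15. It was 5 with the marker balance as a covariate (ALDOA, ENO1, PFKL, PGAM1 and TALDO1) and 4 with the length and GC trend removed (PFKFB4, PFKP, PGAM1 and PGK1). With that trend removed the values of all 10 were smaller in size, with PFKL at -0.19 and HIF1A at 0.14. ENO1 and TALDO1 lost the call when the isotype library at 0.1 µg/ml was dropped, and ENO2, ALDOA and ALDOC kept it in 5, 5 and 4 of the 12 fits that leave out 1 library.

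**Figure D3:**
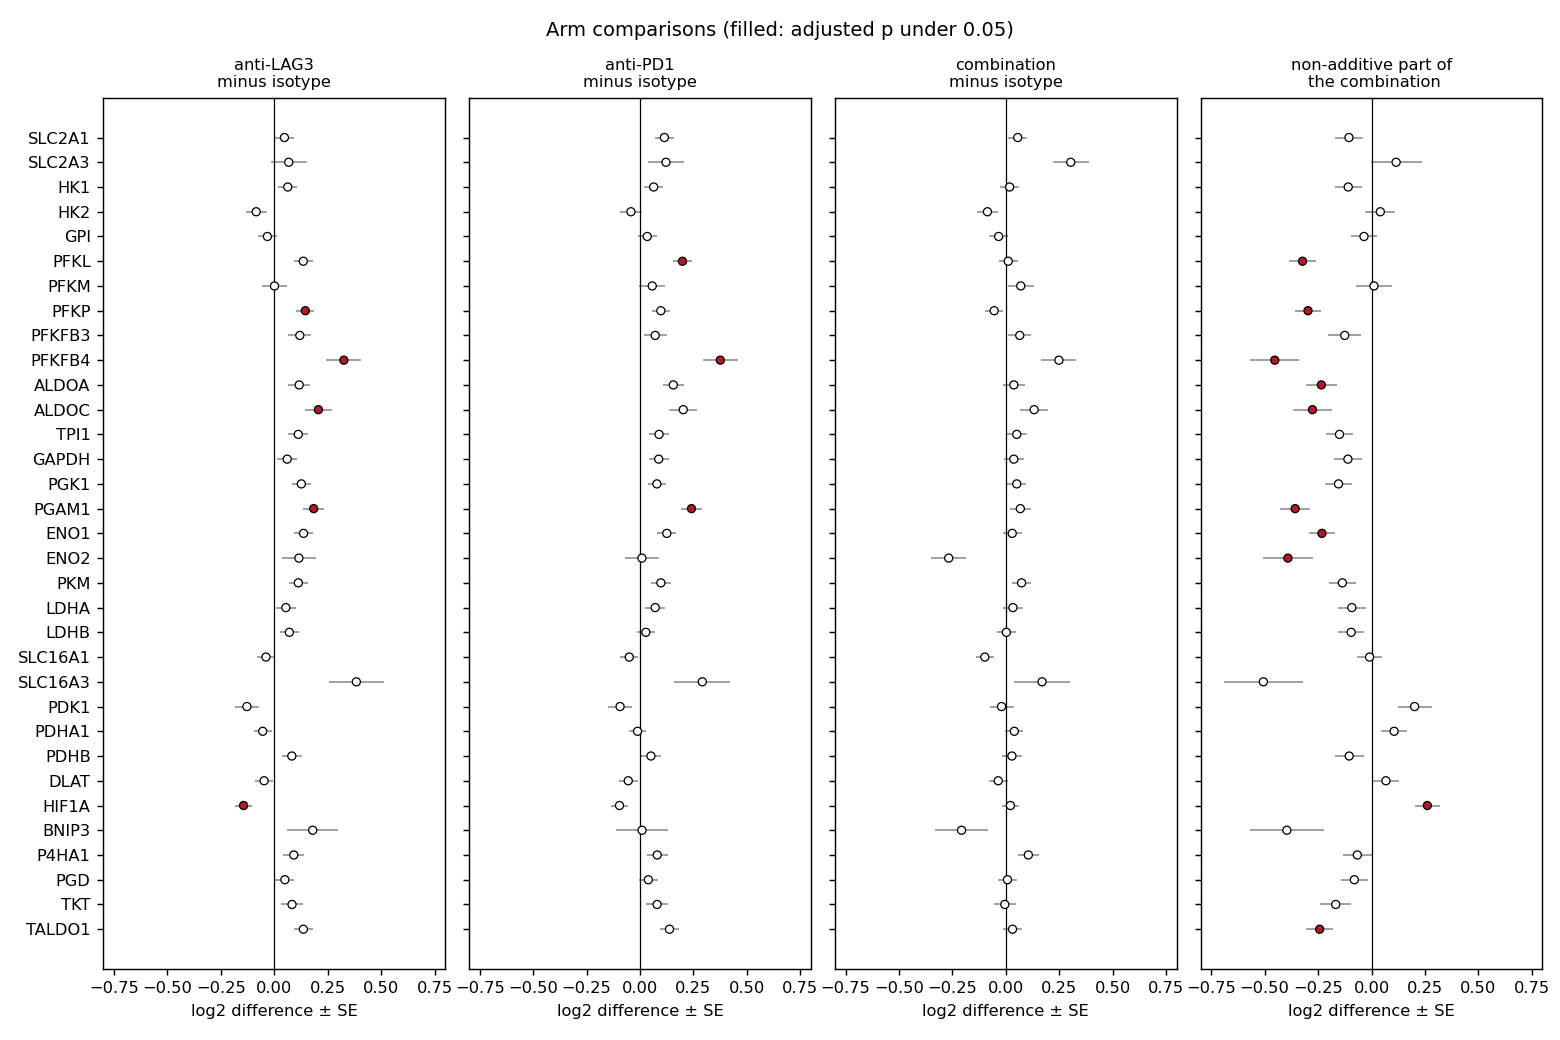
Fitted log2 difference ± SE of each gene for the 3 arms against isotype and for the non-additive value of the combination, with filled points at adjusted p under 0.05. Filled points number 5, 3, 0 and 10 from left to right, and 26 of 33 points of the non-additive panel lie left of 0.

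Dose was tested as the change per 10-fold increase of antibody in an arm minus the same slope in isotype. In the combination 1 of the 33 genes passed, PFKM upward, where 4.63% of all genes were called, and in anti-LAG3 and anti-PD1 none passed, where 0.0708% and 0.264% were. PFKM, the muscle-type phosphofructokinase, read 178, 169 and 154 CPM in the combination and 143, 164 and 169.6 in isotype at 1, 0.1 and 0.01 µg/ml, a slope difference of 0.23 ± 0.05 (SE, adjusted p = 0.00478). The 2 series ran in opposite directions, and their separate slopes were 0.11 ± 0.03 (SE, adjusted p = 0.0774) in the combination and -0.12 ± 0.03 (SE, adjusted p = 0.0876) in isotype, so neither passed on its own. PFKM no longer passed when the combination at 1 or 0.01 µg/ml or isotype at 1 was dropped, and the count was then 0. Of 20 T markers, 4 passed upward and 4 downward in this slope comparison, and no B marker did. The count was 2 on dropping anti-PD1 at 1 or isotype at 0.1, 4 on dropping anti-PD1 at 0.1 or 0.01, 3 with the marker balance as a covariate and 4 with the length and GC trend removed, where ENO2 and TKT joined as negative.

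Within the combination series by itself, SLC2A3 rose and ENO2 fell with dose, 2 of the 33 where 4.27% of all genes had a slope that passed. SLC2A3 had a slope of 0.27 ± 0.06 (SE, adjusted p = 0.0114) per 10-fold dose and ENO2 of -0.27 ± 0.06 (SE, adjusted p = 0.00413). Against the isotype slope these became 0.16 ± 0.09 (SE, adjusted p = 0.385) and -0.26 ± 0.08 (SE, adjusted p = 0.0508), since SLC2A3 also read higher with dose in isotype. In the single-antibody series SLC2A3 read 15.1, 14.4 and 12.1 CPM in anti-LAG3 and 15.8, 14.1 and 13.2 CPM in anti-PD1 at 1, 0.1 and 0.01 µg/ml, so every series had its highest SLC2A3 value at the highest dose. ENO2 in anti-PD1 was level at 21.6, 22.0 and 22.6 CPM.

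For the anti-LAG3 slopes the smallest adjusted p belonged to PFKM at 0.15 ± 0.05 (SE, adjusted p = 0.426), with 4 of the 33 and 1242 of all genes at an unadjusted p under 0.05. For anti-PD1 it belonged to ALDOA at -0.16 ± 0.05 (SE, adjusted p = 0.138). There, 8 of the 33 and 11.1% of all genes had an unadjusted p under 0.05. DESeq2 called none of the 33 in either. The isotype series itself had 10 of the 33 genes at an unadjusted p under 0.05, where 13.7% of all genes were, and 23 positive slopes, led by ALDOA at 0.12 ± 0.03 (SE, adjusted p = 0.0712). None passed after adjustment, where 0.856% of all genes did.

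**Figure D4:**
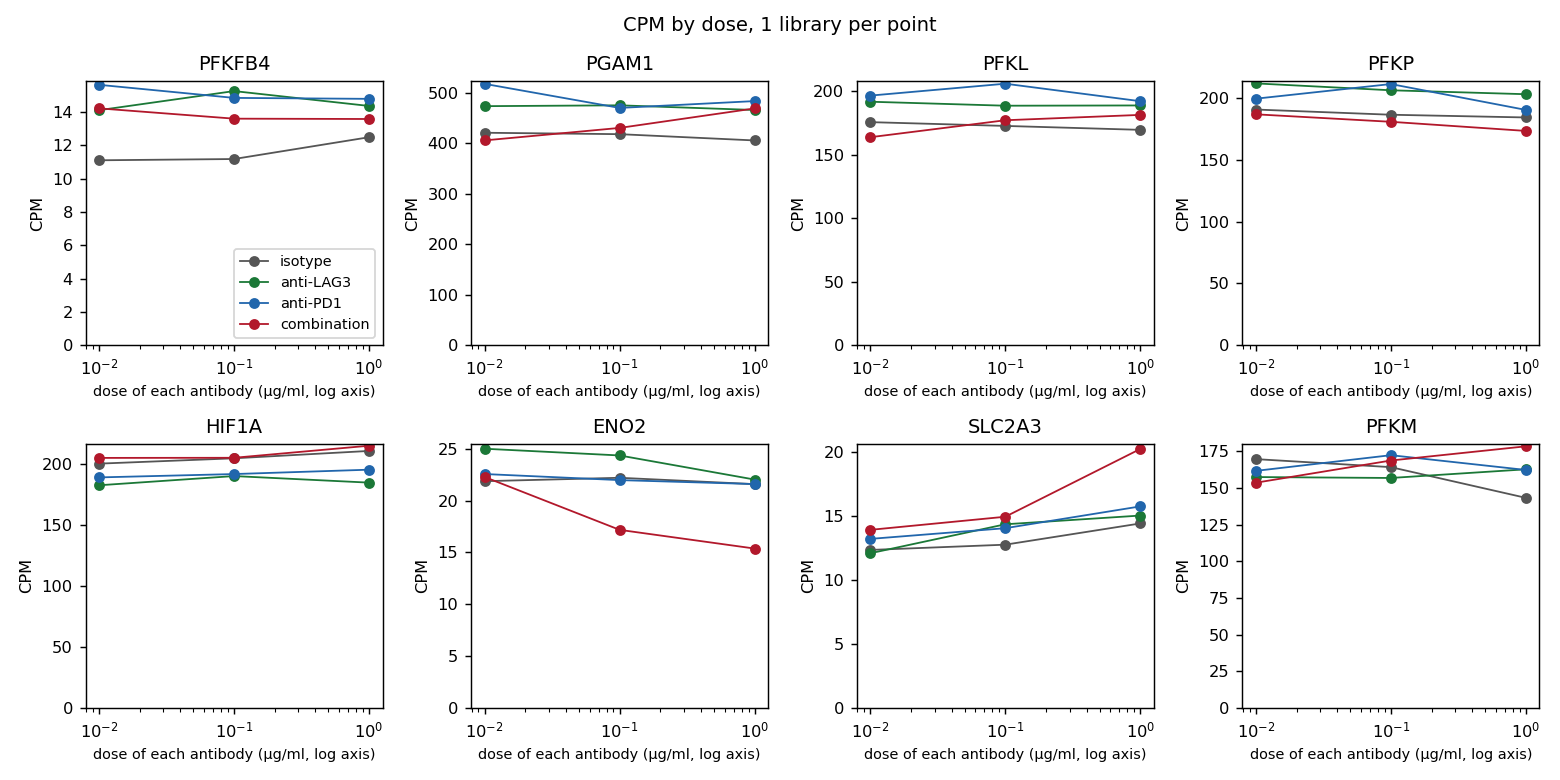
CPM (axis from 0) of 8 genes against antibody dose (µg/ml, log axis), 1 library per point, lines joining the doses of an arm. PFKFB4 lies lowest in isotype at every dose, SLC2A3 stands apart in the combination at 1 µg/ml, ENO2 lies lowest in the combination at 1 and 0.1 µg/ml and above isotype in anti-LAG3 at 0.1 and 0.01, and the PFKM series of the combination and isotype cross.

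Isozyme use was stable. Of the length-scaled level of hexokinase, HK2 held 49.9% to 54.9% and HK1 the rest, and LDHA held 31.0% to 33.5% of the lactate dehydrogenase level, the rest being LDHB. ALDOA held 90.3% to 91.5% of aldolase, ENO1 99.3% to 99.6% of enolase and SLC16A1 98.7% to 99.2% of the lactate transporter pair. These shares moved by a few percentage points at most between libraries.

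The phosphofructokinase subunits showed a clearer order by dose. PFKM held 30.4%, 28.8% and 27.0% of the 3 subunits in the combination at 1, 0.1 and 0.01 µg/ml, while PFKP held 44.4%, 46.5% and 49.5%. In isotype PFKM held 25.6%, 28.0% and 28.3%, and PFKP 49.6%, 47.9% and 47.8%. In anti-LAG3 PFKM held 26.1%, 25.3% and 24.9%, and PFKP 49.1%, 49.98% and 50.4%. In anti-PD1 PFKM held 26.8%, 26.2% and 26.0%, and PFKP 47.3%, 48.3% and 48.3%. Every antibody arm thus had its highest PFKM and lowest PFKP share at 1 µg/ml, and only isotype ran the other way. In the combination at 1 µg/ml PFKM was at its highest and PFKP at its lowest share of all 12 libraries, and the SLC2A3 share of the glucose transporter pair was also at its highest, 11.1% against 7.12% to 9.12% in the others. PFKFB4 held 14.1% to 17.9% of the PFKFB pair in isotype and 17.0% to 19.4% in the antibody arms. No test was run on these shares.

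**Figure D5:**
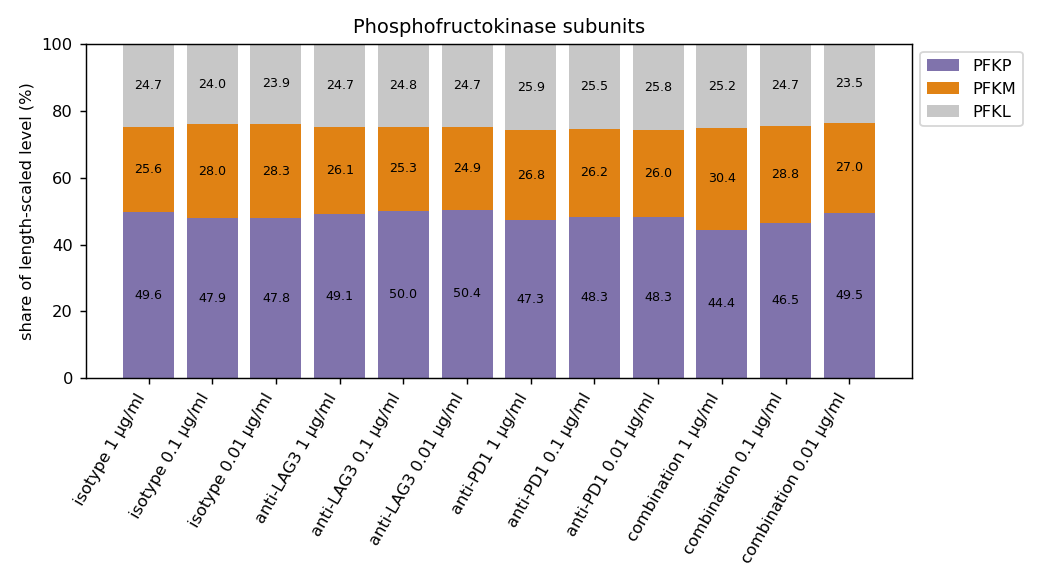
Share (%) of the summed length-scaled phosphofructokinase level held by PFKP, PFKM and PFKL in each of the 12 libraries. PFKM ranges from 24.9% in anti-LAG3 at 0.01 µg/ml to 30.4% in the combination at 1 µg/ml, with PFKL between 23.5% and 25.9%.

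In the authors' deposited tables, each of which sets 1 antibody library against the 3 isotype libraries, 2 calls fell on the 33 genes. In the authors' deposited table for anti-PD1 at 0.01 µg/ml, PGAM1 had a log2 fold change of 0.33 (SE 0.08, their adjusted p = 0.0126, with 1.45% of genes called). In the authors' deposited table for the combination at 1 µg/ml, SLC2A3 had 0.62 (SE 0.18, their adjusted p = 0.0290, with 1.73% called), and ENO2 had -0.50 with an adjusted p of 0.0693. The 9 tables share the isotype libraries, and 20 to 28 of the 33 fold changes were positive in each. None of the 33 was called in the other 7, where the share of genes called was 2.58%, 2.84% and 0.195% for anti-LAG3 by falling dose, 0.443% and 0% for anti-PD1 at the 2 higher doses, and 0.199% and 0% for the combination at the 2 lower ones. Not all 33 had an adjusted p in every table. For anti-LAG3 by falling dose 31, 28 and 28 did, and for anti-PD1 at 0.01 µg/ml 28 did. PFKFB4 had none for anti-LAG3 at 0.1 and 0.01 µg/ml or anti-PD1 at 0.01 µg/ml, so it could not be called there.

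Other genes of the pathway, listed by function, were read in the same fits. Among all genes, 5.75% were called in the combination against anti-LAG3, 4.63% in the combination slope and 15.3% in the non-additive comparison. Of 17 tested genes of other glycolysis and glucose uptake steps, none passed in either single-antibody arm or in the combination against isotype. HKDC1, a low-level hexokinase relative, fell in the combination against anti-LAG3, with 0.55, 1.26 and 1.70 CPM against 2.09, 2.75 and 2.00, a log2 difference of -0.97 ± 0.24 (SE, adjusted p = 0.0195). TIGAR, a fructose 2,6-bisphosphatase, had a combination dose slope above that of isotype by 0.26 ± 0.05 (SE, adjusted p = 0.00474), and SLC2A8, an intracellular glucose transporter, had a non-additive value of -0.49 ± 0.16 (SE, adjusted p = 0.0386). Of 11 other pentose phosphate genes, PGLS, the lactonase of the oxidative branch, had a non-additive value of -0.32 ± 0.08 (SE, adjusted p = 0.0116) and RPIA, the ribose phosphate isomerase, a combination slope difference of 0.18 ± 0.05 (SE, adjusted p = 0.0424), and no others passed in any of the 9 comparisons.

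Of 15 tested genes of pyruvate and lactate handling, 2 rose in anti-LAG3, where 10.0% of all genes were called. MPC2, a subunit of the mitochondrial pyruvate carrier, rose by 0.16 ± 0.05 (SE, adjusted p = 0.0372). PCK2, the mitochondrial PEP carboxykinase, rose by 0.16 ± 0.05 (SE, adjusted p = 0.0393). PDP2, a phosphatase that activates pyruvate dehydrogenase, fell in anti-PD1, where 3.82% of all genes were called. Its log2 difference was -0.23 ± 0.05 (SE, adjusted p = 0.0211). In the non-additive comparison, where 15.3% of all genes were called, 2 of the 15 were positive and 3 were negative. The positive ones were PDP2 and the lactate transporter SLC16A7 at 0.27 and 0.29. The negative ones were PCK2, BSG and MPC2 at -0.26, -0.26 and -0.22. BSG is the chaperone of the lactate transporters.

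Of 21 tested hypoxia response genes, 1 passed in each single arm, where 10.0% of all genes were called in anti-LAG3 and 3.82% in anti-PD1. DDIT4, a stress-induced inhibitor of mTOR signalling, read 27.1, 27.8 and 25.5 CPM in anti-LAG3 and 26.1, 26.2 and 27.1 in anti-PD1, above all isotype libraries at 21.5, 21.5 and 21.3. Its log2 differences were 0.32 ± 0.07 (SE, adjusted p = 0.00614) and 0.31 ± 0.07 (SE, adjusted p = 0.0211). In the combination it read 31.5, 29.3 and 24.7 CPM, also above all isotype libraries. Its difference did not pass there, in a comparison where 0.00644% of all genes were called. None of the 21 passed in the other 7 comparisons.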

How the data were processed

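The genes and lists were chosen with earlier results of these data known. The build was GRCh38 and the tools were STAR 2.5.2b, Trimmomatic 0.36, Subread 1.5.2 with featureCounts, and DESeq2, per the submitters' processing notes. Not given in the sources used here were the strand setting, the annotation release and the handling of reads that map to several places. Pseudogenes named after a gene held at most 1.16% of its counts, but 9.52% to 27.3% for BNIP3, which is therefore uncertain. The authors deposited raw read counts and gene lengths, and tables of log2 fold changes with SE, p-values and adjusted p-values for each antibody library against the isotype libraries. Not used were 4 count columns that match no sample and 36 further columns of the comparison tables.

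Counts were tested in edgeR 4.0.16 (R 4.3.3) with TMM scaling, a minimum count of 10 and the robust quasi-likelihood fit over all 12 libraries. Arm comparisons used arm plus dose as a factor (6 residual degrees of freedom), and slopes used log10 dose within each arm (4). P-values were adjusted over all 15535 genes at 0.05, with 95% intervals. Named are every gene that passed in a comparison (by value the 8 with the smallest p), the one with the smallest p where none passed, and SLC2A1, SLC2A3, HK2, PFKFB3, PFKFB4, LDHA and PDK1. Tested on simulated counts, the combination minus isotype comparison recovered 91.0% of 200 genes changed by 0.5 log2 among 15301, with 5.70% false among those called, and the combination slope minus isotype slope recovered 73.5% of 200 changed by 0.4 among 15311. Smaller changes were not simulated, and the changed genes were not drawn from those of lowest level. No shift shared by many genes of a library, such as set the isotype library at 1 µg/ml apart, was put in. Alternatives were DESeq2 1.42.0, other filters, a marker covariate, a length and GC trend (GC known for 88.1% of genes) and leaving out each library.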

Additional observations from a re-analysis of the deposited data

Results flagged for a closer look

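For 10 of the 33 genes the effect of anti-LAG3 differed with and without anti-PD1, by the test of that difference in edgeR. In that test 15.3% of all genes were called. The effect of adding anti-LAG3 to anti-PD1 minus its effect over isotype was -0.32 on the log2 scale for PFKL, -0.36 for PGAM1, -0.30 for PFKP, -0.45 for PFKFB4, -0.24 for TALDO1, -0.23 for ENO1, -0.39 for ENO2, -0.23 for ALDOA, -0.28 for ALDOC and 0.26 for HIF1A. The T minus B marker balance moved with the arms, highest in anti-LAG3 (-1.84) and lowest in isotype (-2.07). With that balance as a covariate 5 of the 10 kept an adjusted p under 0.05: ALDOA, ENO1, PFKL, PGAM1 and TALDO1. With the length and GC trend removed, PFKFB4, PFKP and PGAM1 kept it, so only PGAM1 passed in both refits.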

How the results depend on the processing

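No called result changed direction under an alternative, and of 418 refits of the genes that passed, 311 kept the call and 107 lost it. With the T minus B marker balance as a covariate, the genes called among the 33 went from 5 to 0 for anti-LAG3 against isotype, from 3 to 0 for the combination against anti-LAG3, from 10 to 5 for the non-additive value and from 1 to 3 for the combination slope. Of the lost calls in the first 2 comparisons, only those of PFKP and ENO2 came with smaller differences. In that balance the anti-LAG3 libraries overlapped neither the isotype nor the combination libraries, so it cannot be separated from the arm in these 2 comparisons. With the covariate the median of the non-additive value became -0.18 and that of the anti-PD1 slope -0.087. With the length and GC trend removed, the counts were 2 for anti-LAG3, 0 for anti-PD1, 4 for the non-additive value and 4 for the combination slope. Every gene that had passed in a comparison had a value smaller in size in that fit. With no filter on low counts they were 5 for anti-PD1, 3 for the combination against anti-PD1 and 3 for the combination slope. A minimum count of 50 gave 9 for anti-LAG3 and 2 for the combination slope, DESeq2 gave 1 for the combination against anti-PD1, the combination slope against 0 gave 2, and the authors' tables gave 0 of their 2 at an adjusted p under 0.01. Leaving out 1 library at a time, the counts ranged from 0 to 11 for anti-LAG3, 0 to 9 for anti-PD1, 0 to 2 for the combination against isotype, 0 to 3 against anti-PD1, 0 to 4 against anti-LAG3, 6 to 15 for the non-additive value and 0 to 4 for the combination slope, and stayed 0 for the other slopes. The medians ranged from 0.068 to 0.11, 0.057 to 0.10, 0.015 to 0.049, -0.069 to -0.021, -0.064 to -0.035 and -0.16 to -0.097 in the same order, and for the anti-LAG3, anti-PD1 and combination slopes from -0.051 to 0.028, -0.12 to -0.00088 and -0.080 to 0.040. The labels number no replicates, and the arm comparisons matched libraries by dose. With dose left out (no replicate block) the counts were 4 for anti-LAG3, 3 for anti-PD1, 3 for the combination against anti-LAG3, 8 for the non-additive value and 0 for the combination against isotype and anti-PD1. The single library per condition and the mixed RNA of both lines limit every comparison. Depth limits the low genes most, the fewest counts being 94 for SLC16A3.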

Other observations

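Genes next to the pathway gave the following values. Of all genes tested, 10.0% were called in anti-LAG3 against isotype, 5.75% in the combination against anti-LAG3 and 4.63% in the combination slope. Of 20 citrate cycle genes, 2 rose in anti-LAG3: SDHC, a subunit of succinate dehydrogenase, with 59.7, 57.1 and 53.5 CPM against 47.1, 48.7 and 47.8 in isotype, a log2 difference of 0.25 ± 0.06 (SE, adjusted p = 0.00857), and IDH2, the mitochondrial isocitrate dehydrogenase, by 0.20 ± 0.05 (SE, adjusted p = 0.0123). IDH2 was lower in the combination than in anti-LAG3, with a log2 difference of -0.18 ± 0.05 (SE, adjusted p = 0.0359). In the combination dose slope, IDH2 and MDH2, the mitochondrial malate dehydrogenase, were below isotype at -0.16 and -0.16 per 10-fold dose.

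Of 13 upstream regulators, AKT2 rose in anti-LAG3 by 0.13 ± 0.04 (SE, adjusted p = 0.0485). PPARGC1B, a coactivator of mitochondrial genes, read 58.9, 58.3 and 69.0 CPM in anti-LAG3 and 71.7, 81.2 and 82.4 in isotype, a log2 difference of -0.34 ± 0.06 (SE, adjusted p = 0.00122). MLXIP, a glucose-sensing transcription factor, differed by -0.27 ± 0.06 (SE, adjusted p = 0.00641). In the combination slope ESRRA, an orphan nuclear receptor, differed from isotype by 0.39 ± 0.06 (SE, adjusted p = 0.000208) and MYC by -0.16 ± 0.04 (SE, adjusted p = 0.0298).

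B and T lineage markers moved in the same comparisons as these genes: in anti-LAG3 4 of 20 T markers rose, and of 20 B markers 1 rose and 4 fell, in the combination against anti-LAG3 3 T markers fell and 6 B markers rose, and in the combination slope 4 T markers passed in each direction. Their part in these values was not tested.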
